A study of Rattus norvegicus with 12 samples.

Results

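Skin-derived precursors (SKPs) are dermal precursor cells that grow as floating spheres. In the experiment described here, SKPs from newborn Sprague-Dawley rats received either trimebutine maleate with trametinib, or alprostadil, and the transcriptomes under the 2 treatments were set against each other. All genes of the array with a single symbol entered, 18166 in all, of which 13636 were bright enough to be tested. The arrays compared were 6 of the 12 of the study, 3 per treatment. One group was exposed to 100 nM trimebutine maleate and 100 nM trametinib together, the other to 100 nM alprostadil, each for 24 h. The 3 arrays of vehicle-treated cells and the 3 arrays of cells given 100 nM trimebutine maleate alone served as references. The cells of all groups came from dissociated secondary spheres and were grown in medium that held FGF2 and EGF, growth factors whose receptors feed the ERK pathway. The replicate numbers 1, 2 and 3 recurred in each group and stood for 3 independent isolates, so each isolate was compared with itself. The treatments differed by trimebutine as well as by trametinib and alprostadil, no group received trametinib without trimebutine, and each drug was used at a single dose and time.

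Trametinib inhibits MEK, the kinase that phosphorylates ERK. Active ERK induces early transcription factors of the EGR and AP-1 families, cyclins, metalloproteinase genes and its own inhibitors, the DUSP phosphatases and Sprouty proteins. Alprostadil is synthetic prostaglandin E1. Through prostanoid receptors coupled to the stimulatory G protein it raises cyclic AMP, which activates protein kinase A and the transcription factor CREB, and CREB induces genes such as the NR4A nuclear receptors and phosphodiesterases that degrade cyclic AMP. Trimebutine is a drug for disorders of gut motility. In the dermis, prostaglandins and growth factor signalling both act on the factors that precursor cells secrete into a wound. The series title places the drugs in a search for agents that improve skin repair.

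Array medians of the log2 values ran from 6.409 to 6.505, and within a group the arrays correlated at 0.985 to 0.991, against 0.972 to 0.979 between an array of the combination and an array of alprostadil. Over all genes tested, 65.5% of the variance lay on a component that separated the combination from the other 3 groups, and 15.2% on one that separated the replicate numbers. With trimebutine alone, limma called 0 genes against vehicle, with or without the block. With the block, 252 of 13636 genes had an unadjusted p under 0.05, fewer than that threshold would give if no gene differed. The precision is limited by the 3 arrays per group. Levels below are log2 values in the order of replicates 1, 2 and 3, differences are on the log2 scale with the standard error (SE) of the blocked fit, and a gene is called at an adjusted p under 0.05. In such bulk samples, fewer cells of a type and less RNA per cell cannot be told apart.

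The direct comparison asked what sets MEK-inhibited cells apart from prostaglandin-stimulated cells. Interstitial collagenase and stromelysin genes fell furthest under the combination, with genes of mitosis and of feedback on ERK, while genes of an elastic fibre protein, a secreted WNT antagonist and a PDGF ligand were far higher. Of 13636 genes, 6330 were called (46.4%), 3343 higher with the combination (24.5%) and 2987 lower (21.9%). Which direction held more genes depended on the scaling and the filter, since the split was 2695 higher and 2939 lower with each array centred on its median, and 2783 and 2806 with the filter on dim genes at the 50th percentile. The difference was at least 1 for 688 of them. The arrays of the groups did not overlap for 6666 genes (48.9%), and 5603 genes were both called and without overlap. The median difference over all genes was 0.04.

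The largest fall was that of Mmp13, which encodes a collagenase of the interstitial matrix. It lay at 12.70, 12.53 and 12.63 with alprostadil and at 5.60, 6.49 and 7.30 with the combination, a difference of −6.16 (SE 0.27, adjusted p = 3.41e-08), or 71.3-fold. Mmp3, a stromelysin gene, lay at 13.02, 13.01 and 13.13 against 6.51, 7.69 and 8.14, a difference of −5.61 (SE 0.25). In both genes the lowest alprostadil array stood far above the highest combination array, and combination replicate 1 was the lowest array. The gelatinase gene Mmp9 (−4.10, SE 0.20) and the second stromelysin gene Mmp10 (−3.89, SE 0.10) followed, and then Stc1 (−3.60), which encodes the secreted glycoprotein stanniocalcin, and Tfpi2 (−3.60), a serine protease inhibitor gene. The other genes among the 12 largest falls were Ccr1 (−3.34), a chemokine receptor gene, Mmd (−3.30), Ptgs2 (−3.30), which encodes the inducible cyclooxygenase that starts prostaglandin synthesis, Igfbp3 (−3.19), which binds insulin-like growth factors, Sgo2 (−3.19), a protector of centromeric cohesion, and Dusp6 (−3.18), the cytoplasmic ERK phosphatase.

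Mfap5 rose most. Its product is a glycoprotein of the microfibrils in elastic fibres, and it lay at 6.15, 6.28 and 5.67 with alprostadil and at 11.44, 11.35 and 10.33 with the combination, a difference of 5.01 (SE 0.10, adjusted p = 3.42e-10), or 32.2-fold. Sfrp2, a secreted WNT antagonist gene, lay at 8.52, 8.53 and 8.51 against 12.83, 12.43 and 12.10, a difference of 3.93 (SE 0.10). Pdgfd, a ligand gene of the PDGF receptors, lay at 6.48, 6.63 and 6.81 against 10.62, 10.50 and 10.28, a difference of 3.83 (SE 0.11). In each of these genes the groups stood wide apart. The others among the 12 largest rises were Tnfrsf11b (3.13), which encodes the RANKL decoy receptor osteoprotegerin, Adgrd1 (3.10), an adhesion receptor gene, Tagln (3.06), an actin-binding protein gene of contractile cells, Aqp1 (3.03), a water channel gene, Ccdc80 (2.96), Adamts5 (2.80), an aggrecanase gene, Cracdl (2.73), Ackr3 (2.68), a scavenger receptor gene for CXCL12, and Tubb3 (2.62), a beta tubulin gene.

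The genes Vegfa, Rorb, Tfpi2 and Phlda1 mark the comparison, since alprostadil moved them up and the combination moved them down. Vegfa, which encodes the main growth factor of blood vessels, lay at 11.67, 11.67 and 11.54 with alprostadil, at 10.99, 10.91 and 10.80 with vehicle and at 9.63, 9.72 and 9.71 with the combination. Its direct difference was −1.94 (SE 0.07, adjusted p = 7.45e-09), of which −1.21 lay between vehicle and the combination and 0.73 between vehicle and alprostadil. The 3 groups formed 3 separate levels with no overlap.

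Rorb, an orphan nuclear receptor gene of the ROR family, lay at 9.36, 8.85 and 9.01 with alprostadil, at 7.38, 7.19 and 7.54 with vehicle and at 6.64, 6.71 and 6.92 with the combination. Its direct difference was −2.31 (SE 0.11), made up of 1.70 on the alprostadil side and −0.62 on the other. Tfpi2, whose product inhibits plasmin and other matrix-degrading serine proteases, lay at 9.82, 9.78 and 9.50 with alprostadil, at 8.74, 8.29 and 8.28 with vehicle and at 5.90, 6.17 and 6.26 with the combination. For Tfpi2 the larger move was that of the combination, −2.33 against vehicle, with 1.26 for alprostadil. Phlda1, a pleckstrin homology-like domain gene listed among ERK targets, lay at 10.94, 10.71 and 10.70, at 9.87, 9.66 and 9.55 and at 8.98, 8.65 and 8.85 in the same order of groups. Its moves were 1.09 with alprostadil and −0.87 with the combination. In each of these genes, the trimebutine arrays overlapped the vehicle arrays, which the plot of levels by array shows.

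**Figure D1:**
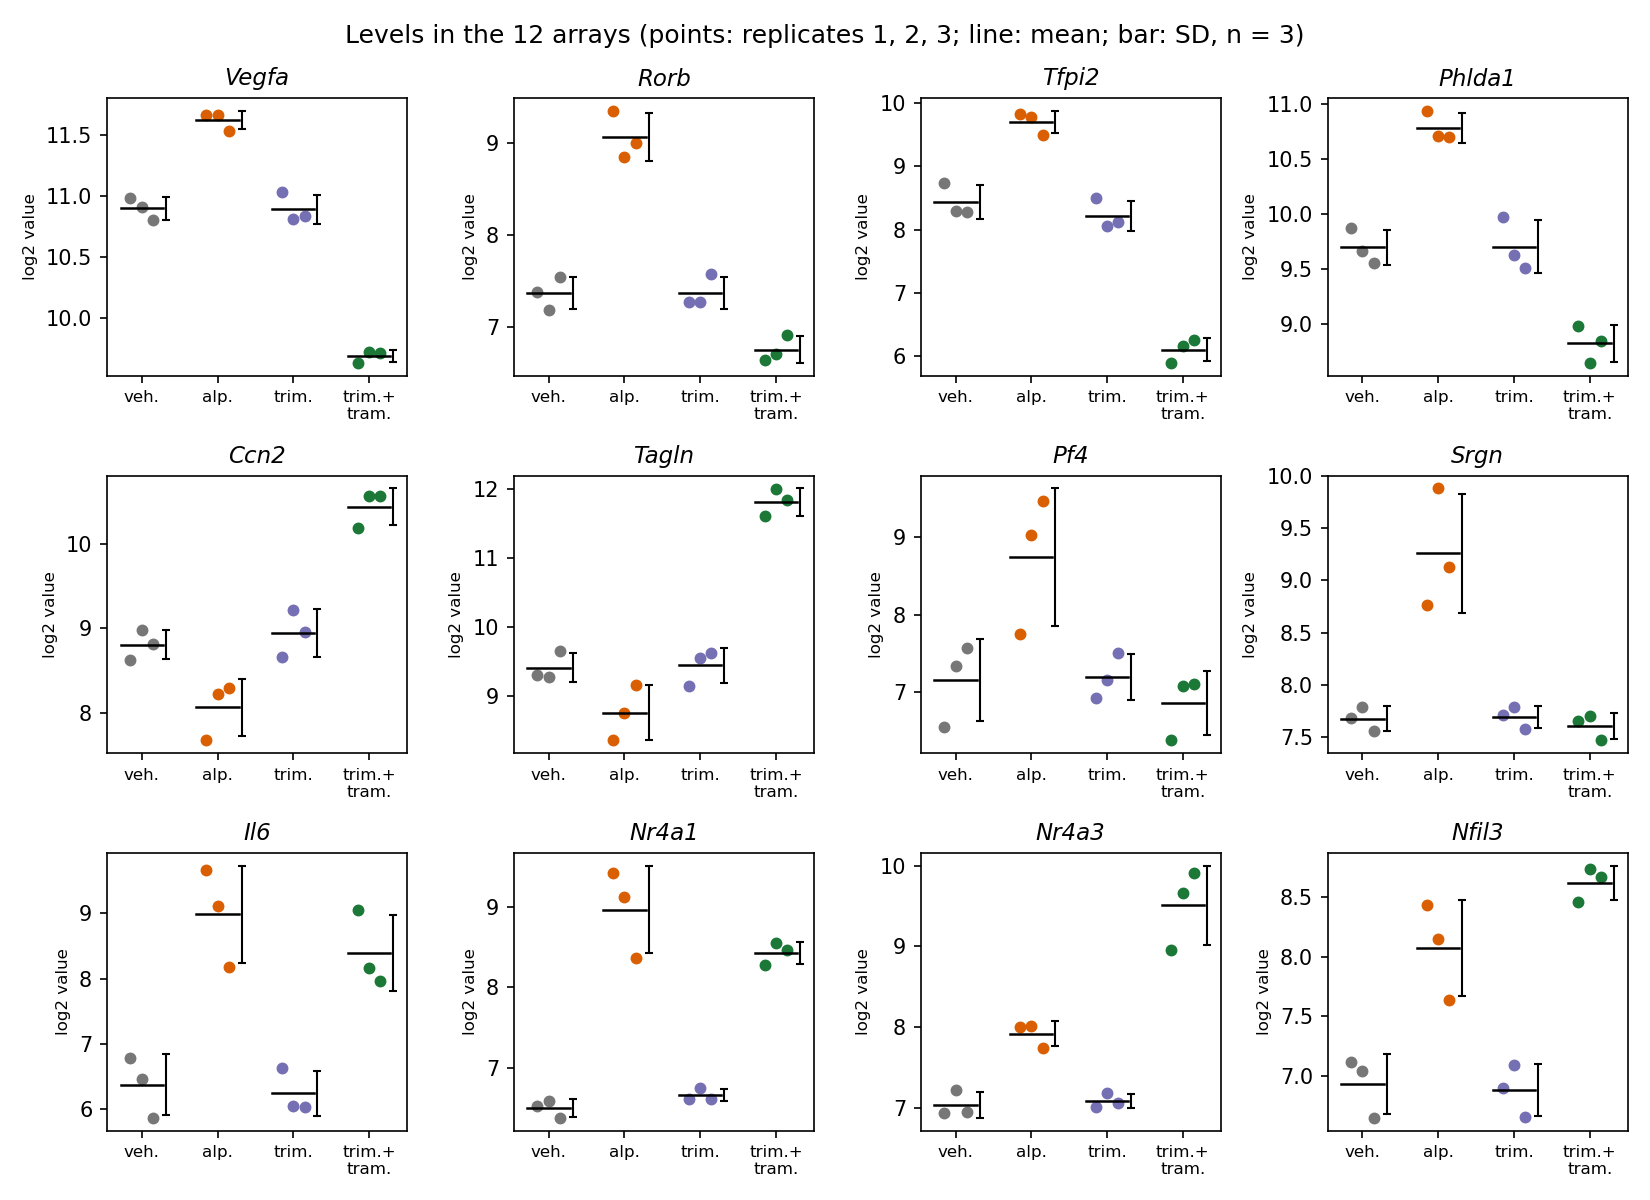
Log2 level of 12 genes in the 12 arrays, as 4 groups on the horizontal axis (vehicle, alprostadil, trimebutine, trimebutine with trametinib), with each array as a point, the mean as a line and the SD (n = 3) as a bar. Vegfa, Rorb, Tfpi2 and Phlda1 are highest with alprostadil and lowest with the combination, Ccn2 and Tagln the reverse, Pf4 and Srgn are high with alprostadil, and Il6, Nr4a1, Nr4a3 and Nfil3 are high with both; each vertical axis has its own range.

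To set apart genes that the treatments moved in opposite directions from genes that one of them moved, each gene called directly was read against the vehicle arrays. The combination was called against vehicle for 5887 genes (43.2%), and alprostadil for 257 (1.88%), 160 higher (1.17%) and 97 lower (0.711%). Both comparisons use the same 3 vehicle arrays, so an error in a gene's vehicle level moves both of its values the same way. Of the 6330 genes, 65 were higher than vehicle with alprostadil and lower with the combination (0.477% of genes tested), and 40 were the reverse (0.293%). Another 4938 were called for the combination alone (36.2%), 61 for alprostadil alone (0.447%), and 54 for both in the same direction (0.396%). The remaining 1172 (8.59%) were called against vehicle in neither. In 1149 of these the vehicle mean lay between the treatment means, and the median size of the direct difference was 0.237. That order follows largely from the definition of the class, called directly but in neither comparison with vehicle, and is no separate result. A gene not called against vehicle is not shown to be unchanged there.

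Seen from the side of alprostadil, 65 of its 160 higher genes went down with the combination, 37 went up with it by a different amount, 43 were called for alprostadil alone, and 15 were not called directly. Of its 97 lower genes, the counts were 40, 17, 18 and 22. Of all genes tested, 21.1% were called lower and 22.1% higher with the combination than with vehicle. Part of the counts is therefore what any set of genes would show. With the trimebutine arrays in place of vehicle as the reference of the combination, the opposite genes numbered 64 and 40, of which 60 and 40 were in the sets above, and the differences then shared no array. Genes of the same direction then numbered 47, all among the 54 above. Genes of alprostadil alone numbered 69, of which 57 were among the 61 above. The class of a gene depended on the fit more than the direct difference did. Without the replicate block, 5162 genes were called directly, but 53 for alprostadil against vehicle, and the opposite genes numbered 16 and 2, those of alprostadil alone 14 and those of the same direction 8. Leaving out vehicle replicate 1, 2 or 3, or alprostadil replicate 1 or 2, lowered the opposite genes to 35, 30, 33, 42 and 31 in the first direction and to 12, 14, 17, 16 and 15 in the second. The same 5 runs gave 119, 118, 131, 128 and 115 genes called for alprostadil against vehicle, 29, 32, 37, 25 and 24 of alprostadil alone, and 23, 25, 25, 25 and 22 of the same direction.

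**Figure D2:**
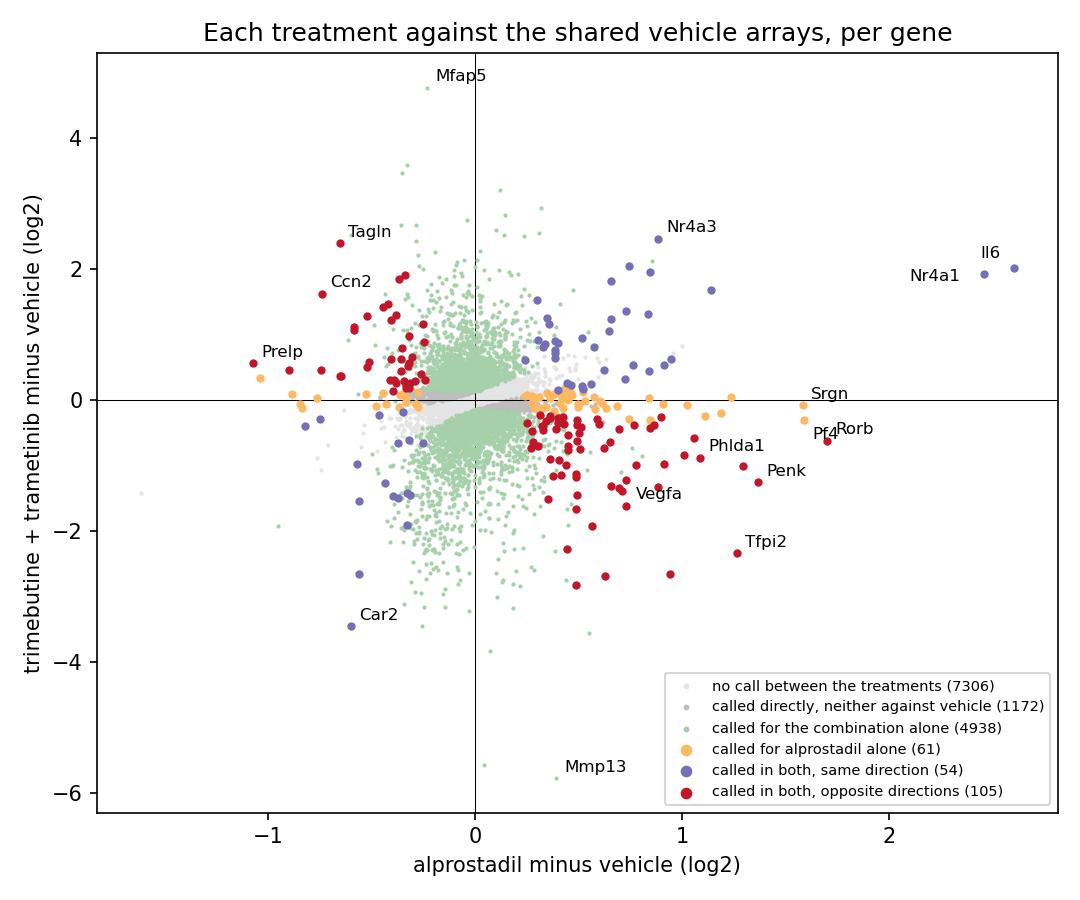
Difference from vehicle of each of the 13636 genes, with alprostadil on the horizontal axis and trimebutine with trametinib on the vertical axis (log2), coloured by the calls; both axes share the 3 vehicle arrays, so their errors are correlated. The cloud is far taller than it is wide, with 4938 genes called for the combination alone against 61 for alprostadil alone, and the 105 opposite genes lie in the upper left and lower right.

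The 65 genes that rose with alprostadil and fell with the combination had median values of 0.49 for alprostadil against vehicle, −0.69 for the combination against vehicle and −1.25 directly, and the combination's move was the larger in 39. In 48 of the 65 genes all 3 vehicle arrays lay strictly between the arrays of the treatments. The definition of the class already places the vehicle mean between the treatment means, and its calls favour arrays that keep apart. The count is therefore no separate result, and the share over all genes is not given here. Penk, which encodes the precursor of enkephalin opioid peptides, lay at 12.65, 12.56 and 12.82 with alprostadil, at 11.15, 11.03 and 11.74 with vehicle and at 9.53, 10.16 and 10.49 with the combination. Its groups did not overlap, and its direct difference was −2.62 (SE 0.14, adjusted p = 1.62e-07).

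Stc1 lay at 9.92, 9.62 and 9.24, at 9.14, 8.47 and 8.35 and at 5.93, 6.09 and 5.97 in the same order, with moves of 0.94 and −2.66. Gem, a small GTPase gene induced by cyclic AMP, lay at 10.67, 10.43 and 10.32, at 10.05, 9.56 and 9.62 and at 8.21, 7.90 and 8.30, with moves of 0.73 and −1.61. Dio3, whose enzyme inactivates thyroid hormone, moved by 0.88 and −1.32, and Phyhipl by 1.29 and −0.99. In Stc1, Gem, Dio3 and Phyhipl the arrays of the 3 groups kept apart. Bmp7, a bone morphogenetic protein gene, moved by 0.78 and −0.98, and here alprostadil replicate 1, at 8.11, lay inside the vehicle range of 7.52 to 8.43. The others by the size of the smaller move were Arhgef3 (0.91 and −0.96), Plxdc1 (1.01 and −0.83), a membrane receptor gene, and Draxin (0.71 and −1.38), which encodes a secreted axon guidance protein.

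Several further members, chosen after their values were seen, have known roles in dermal signalling. The prostaglandin synthase gene Ptgs2 lay at 12.92, 12.60 and 12.46 with alprostadil, at 12.53, 12.13 and 11.86 with vehicle and at 9.59, 9.15 and 9.35 with the combination. Alprostadil raised it by 0.49 (SE 0.09, adjusted p = 0.021) with arrays that overlapped those of vehicle, and the combination lowered it by −2.81. Fgf10, a growth factor gene that dermal cells send to epithelium, moved by 0.49 and −1.13, and Wnt5a, a noncanonical WNT ligand gene, by 0.49 and −1.45. Has2, which makes hyaluronan, moved by 0.36 and −0.89, Fst, which encodes the activin antagonist follistatin, by 0.51 and −0.75, and the interleukin gene Il11 by 0.77 and −0.37. Cd24, a surface sialoglycoprotein gene, moved by 0.69 and −1.33. The opposite class was kept under all 21 alternative settings by 8 of the 65 genes, which were Arhgef3, Cd24, Giot1, Phlda1, Plxdc1, Rorb, Tfpi2 and Vegfa. Leaving out 1 array at a time, 27 of the 65 kept it in every run. The alprostadil call of Stc1, Bmp7, Dio3, Ptgs2 and Wnt5a was lost in at least 1 such run without a vehicle or alprostadil array, with differences over all alternatives of 0.84 to 1.05 for Stc1, 0.67 to 0.93 for Bmp7, 0.40 to 0.54 for Ptgs2 and 0.44 to 0.58 for Wnt5a. Has2 kept its class in 5 of the 9 runs without 1 array, and not without the block.

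**Figure D3:**
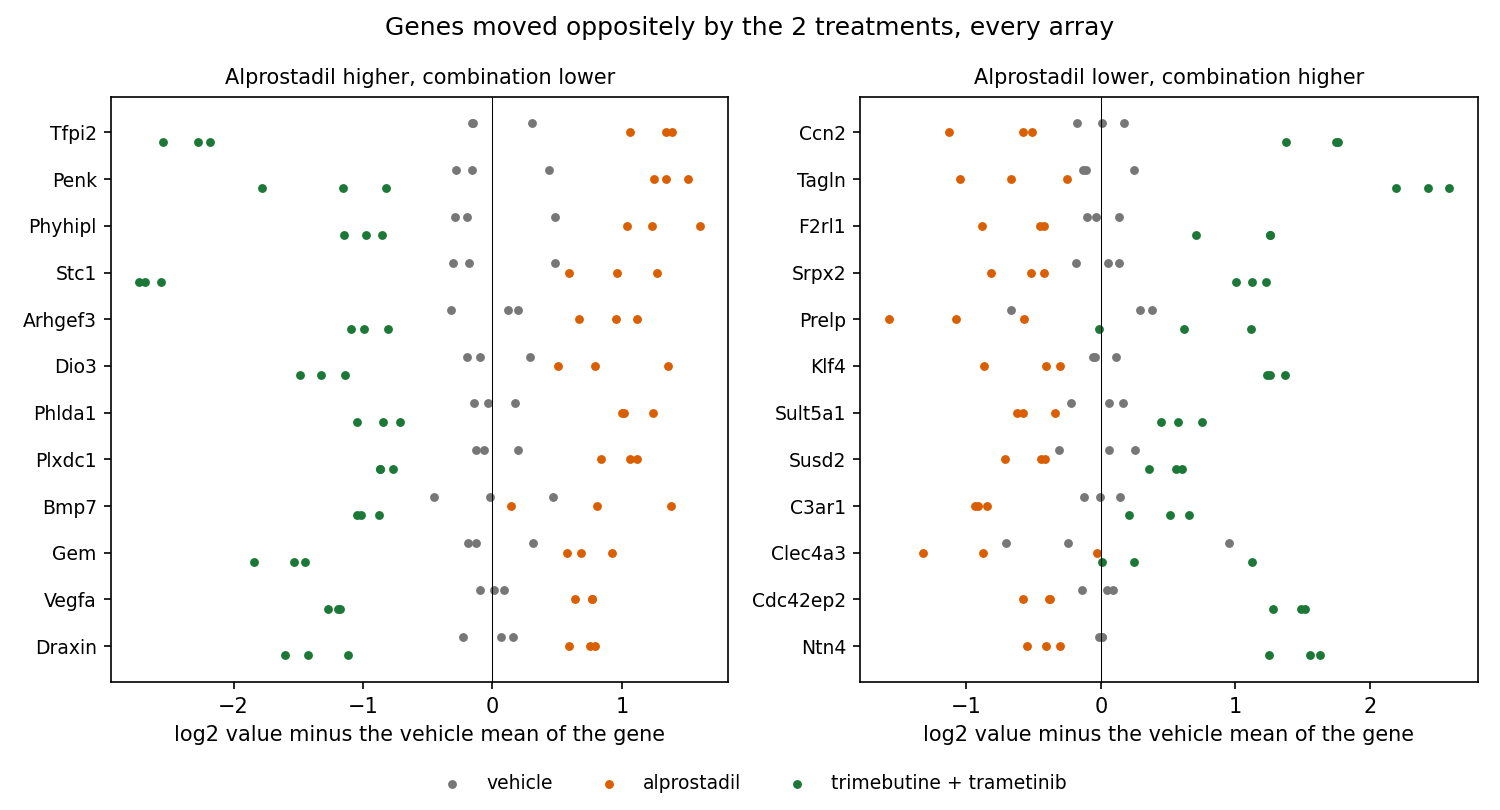
Log2 value of each array minus the vehicle mean of the gene, for the 12 genes per direction with the largest smaller move, for vehicle, alprostadil and trimebutine with trametinib (3 points per group). In the left panel the vehicle points mostly sit between alprostadil on the right and the combination on the left, but in Bmp7 an alprostadil point lies inside the vehicle range. In the right panel the order is turned. In Prelp and Clec4a3 of that panel the arrays of different groups overlap, and the replicates of a group lie far apart.

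The 40 genes that fell with alprostadil and rose with the combination had medians of −0.38 for alprostadil, 0.57 for the combination and 1.04 directly. In 29 of the 40 genes the vehicle arrays lay strictly between, where the definition of the class already places the vehicle mean. As in the first direction, this count is no separate result. The combination's move was the larger in 25. Tagln lay at 8.36, 8.75 and 9.16 with alprostadil, at 9.31, 9.28 and 9.66 with vehicle and at 11.61, 12.005 and 11.84 with the combination. Its moves were −0.66 (SE 0.12, adjusted p = 0.0165) and 2.40, with no overlap between groups. Ccn2, which encodes connective tissue growth factor, lay at 7.68, 8.23 and 8.29, at 8.63, 8.98 and 8.82 and at 10.19, 10.57 and 10.56, with moves of −0.74 and 1.63.

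Klf4, a transcription factor gene of growth arrest and epithelial barrier, moved by −0.53 and 1.29, from 9.73, 9.88 and 9.71 with vehicle to 8.91, 9.47 and 9.37 and to 11.03, 11.15 and 11.01. Its 3 groups kept apart. Prelp, a small proteoglycan gene, moved by −1.08 and 0.57. Prelp differed so much between isolates (vehicle at 9.62, 9.72 and 8.67) that alprostadil replicate 2, at 8.77, lay above vehicle replicate 3, although each isolate moved the same way. F2rl1, a protease-activated receptor gene, moved by −0.59 and 1.07, Srpx2 by −0.59 and 1.12, Cdc42ep2, a CDC42 effector gene, by −0.45 and 1.43, and Ntn4, a netrin gene, by −0.42 and 1.48. Sult5a1 (−0.51 and 0.59) and Susd2 (−0.52 and 0.51) moved by similar amounts each way. Pkig, which encodes an inhibitor of protein kinase A, moved by −0.41 and 1.23, and Vcl, which encodes the focal adhesion protein vinculin, by −0.34 and 0.29, both chosen after their values were seen. None of the 40 genes kept its class under all 21 alternatives, and 10 kept it in every run without 1 array. The alprostadil call of Tagln (−0.78 to −0.56 over the alternatives), Klf4 (−0.61 to −0.39), F2rl1, Srpx2, Ntn4, Sult5a1 and Pkig was lost in at least 1 of those runs, while the direct difference of Tagln, Ccn2 and Klf4 was called in each that tested it.

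C3ar1, the complement C3a receptor gene, and Clec4a3, a lectin gene, are expressed by myeloid cells. C3ar1 lay at 5.98, 5.89 and 5.91 with alprostadil, at 6.97, 6.70 and 6.82 with vehicle and at 7.03, 7.49 and 7.34 with the combination, with no overlap. Clec4a3 lay at 5.20, 5.65 and 6.50, at 5.82, 6.28 and 7.48 and at 6.53, 6.78 and 7.65, with replicate 3 the highest in each group. Without the block none of its differences was called (adjusted p = 0.839 for alprostadil against vehicle, 0.53 for the combination against vehicle and 0.0858 directly). Macrophage markers were clearly present in these cultures. Over the macrophage and leukocyte list, the summed level of all members on the array, taken off the log scale, ran from 5022 to 18247 with alprostadil, from 5810 to 16616 with vehicle and from 4490 to 13058 with the combination. Of its 17 genes tested, 6 were higher with the combination than with alprostadil and 3 lower, with a median of −0.01. The part of macrophages in these genes was not tested.

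The genes called for the combination alone, 2420 lower (17.7%) and 2518 higher (18.5%), made up most of the direct difference. Mmp13 and Mmp3 were among the lower ones. Mmp13 lay at 12.29, 12.11 and 12.28 with vehicle and Mmp3 at 12.97, 12.95 and 13.11, close to their alprostadil levels, and the alprostadil differences were 0.39 (SE 0.27, adjusted p = 0.591) and 0.04 (SE 0.25, adjusted p = 0.973). Dusp6 lay at 11.67, 11.54 and 11.45 with alprostadil, at 11.77, 11.49 and 11.50 with vehicle and at 8.64, 8.06 and 8.44 with the combination. Its alprostadil difference was −0.03 (SE 0.09), and its direct difference of −3.18 was almost all on the combination's side. On the rising side, Mfap5 was 4.78 above vehicle with the combination and −0.23 with alprostadil, Sfrp2 3.60 and −0.33, and Pdgfd 3.48 and −0.35. Tnfrsf11b was 2.53 above vehicle with the combination, while its alprostadil difference of −0.60 missed the threshold (SE 0.15, adjusted p = 0.09).

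Alprostadil alone was called for 43 genes that it raised (0.315%) and 18 that it lowered (0.132%), with medians of 0.46 and −0.40 against vehicle. Among the raised genes were phosphodiesterase genes and ligand genes. Pf4, a chemokine gene of platelets and macrophages, lay at 7.75, 9.02 and 9.46 with alprostadil, at 6.56, 7.34 and 7.57 with vehicle and at 6.38, 7.09 and 7.11 with the combination. It stood 1.59 above vehicle with alprostadil (SE 0.18, adjusted p = 0.00123) and −0.30 with the combination (adjusted p = 0.203). Srgn, the core protein gene of the proteoglycan serglycin, lay at 8.77, 9.88 and 9.13, at 7.68, 7.79 and 7.56 and at 7.65, 7.70 and 7.47, with differences of 1.58 and −0.07. The combination and vehicle levels of Srgn were close to each other in each isolate.

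Lif, a cytokine gene of the interleukin 6 family, was 1.19 above vehicle with alprostadil and −0.20 with the combination, and Areg, the amphiregulin gene, whose product activates the EGF receptor, 1.11 and −0.23. Pde4b, a cyclic AMP phosphodiesterase gene, lay at 7.53, 7.88 and 7.63 with alprostadil, at 6.30, 6.35 and 6.68 with vehicle and at 6.70, 6.41 and 6.37 with the combination. Pde4d (0.84 and 0.04) and Pde3b (0.58 and 0.05), phosphodiesterase genes as well, had the same form. Mapk10, which encodes the kinase JNK3, had differences of 1.02 and −0.07, and Pdxkl1 0.74 and −0.28. Ccl6, a chemokine gene of myeloid cells, had differences of 0.84 and −0.30, and its alprostadil arrays, at 7.86, 9.62 and 11.04, overlapped the other groups. Without the replicate block its direct difference was not called (adjusted p = 0.437). Kept in this class under all 21 alternatives were 4 of the 43 genes, Cbarp, Pde3b, Pde4d and Srgn.

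Among the 18 genes lowered by alprostadil alone, Clec4a1, a lectin gene of myeloid cells, lay at 5.69, 6.45 and 7.50 with alprostadil, at 7.17, 7.15 and 8.44 with vehicle and at 7.39, 8.04 and 8.34 with the combination. It differed by −1.04 from vehicle (SE 0.18, adjusted p = 0.0122), with arrays that overlapped between isolates. Cd180, a surface receptor gene of leukocytes, differed by −0.89, Rgs18, a G protein regulator gene of blood cells, by −0.84, and Rasgrp3, a RAS exchange factor gene, by −0.85. The direct differences of Clec4a1 (adjusted p = 0.0534), Cd180 (adjusted p = 0.16) and Rgs18 (adjusted p = 0.247) were not called without the block. Of the 17 macrophage and leukocyte markers, 2 were called lower with alprostadil, Adgre1 (−0.83) and C3ar1 (−0.90), beside 0.711% of all genes, and none higher, and the list's alprostadil and vehicle sums overlapped as given above. Lbh, a transcription cofactor gene, lay at 9.20, 9.40 and 9.25 against 10.16, 10.04 and 9.96 with vehicle and 9.76, 10.12 and 10.41 with the combination. Akap12 (−0.53), a scaffold gene for protein kinase A, Tnfrsf12a (−0.45), the receptor gene of the cytokine TWEAK, and Pea15 (−0.35), whose product holds ERK in the cytoplasm, completed the 8 with the largest direct difference. In at least 1 run without a vehicle or alprostadil array, the alprostadil call of Clec4a1, Cd180, Lbh, Akap12, Tnfrsf12a and Pea15, and of Ccl6 above, was lost. Akap12 was not called directly without the block (adjusted p = 0.247).

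In the class of the same direction, 37 genes rose (0.271%) and 17 fell (0.125%) with both treatments, and the direct call shows that the sizes differed. The combination's rise was the larger in 23 of the 37 and its fall in 13 of the 17. Nr4a3, a nuclear receptor gene induced by cyclic AMP, lay at 8.01, 8.01 and 7.74 with alprostadil, at 6.94, 7.23 and 6.95 with vehicle and at 8.96, 9.66 and 9.91 with the combination. It rose by 0.88 with alprostadil and by 2.47 with the combination, a direct difference of 1.59 (SE 0.17, adjusted p = 2.34e-05). Its relative Nr4a1 lay at 9.42, 9.11 and 8.36, at 6.53, 6.59 and 6.38 and at 8.27, 8.54 and 8.46. Nr4a1 rose more with alprostadil, by 2.46 against 1.92, and the direct difference of −0.54 (SE 0.18, adjusted p = 0.0292) had its sign in 2 of 3 isolates.

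Il6, the gene of the cytokine interleukin 6, lay at 9.65, 9.11 and 8.18 with alprostadil, at 6.79, 6.47 and 5.87 with vehicle and at 9.05, 8.16 and 7.96 with the combination. It rose by 2.60 and 2.02, and the direct difference of −0.59 (SE 0.16, adjusted p = 0.0109) was negative in 3 of 3 isolates, with overlapping groups. In the 9 runs without 1 array Nr4a1 kept this class in 5 and Il6 in 6, and neither kept it without the block. Nfil3, a bZIP repressor gene, rose by 1.14 with alprostadil and 1.69 with the combination and was the member of the 37 that kept its class under all 21 alternatives. The others with large direct differences were Olfml2b (0.74 with alprostadil and 2.04 with the combination), the protease gene Adamts15 (0.30 and 1.54), the transporter gene Slc16a6 (0.66 and 1.83), Pi15 (0.85 and 1.96), the guanine deaminase gene Gda (0.34 and 1.27), Srgap1 (0.36 and 1.17) and the matrix protein gene Spon2 (0.73 and 1.37).

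The 17 genes that fell with both were led by Car2, a carbonic anhydrase gene, at 9.87, 9.79 and 9.58 with alprostadil, 10.55, 10.39 and 10.10 with vehicle and 7.03, 6.64 and 7.02 with the combination. It differed from vehicle by −0.60 with alprostadil and by −3.45 with the combination. Mir221 lay at 8.06, 7.89 and 7.89, at 8.79, 8.34 and 8.38 and at 5.998, 5.63 and 5.94, which are differences of −0.56 and −2.65 from vehicle. Its neighbour Mir222 lay at 6.97, 6.34 and 6.29, at 7.23, 6.80 and 6.68 and at 5.67, 5.41 and 5.18, differences of −0.37 and −1.49. The features carry the names of the hairpin genes, and whether their probes read the hairpin or a longer primary transcript was not tested. Over the class, the alprostadil call of Nr4a3 (0.72 to 1.02 over the alternatives), Olfml2b, Adamts15, Pi15, Gda, Srgap1, Car2 (−0.68 to −0.54), Mir222, Cep55, Pear1, RT1-S3 and Kcnn4 was lost in at least 1 run without a vehicle or alprostadil array. The remaining genes of the 8 with the largest direct difference were Cep55, a cytokinesis gene (−0.33 and −1.90), Pear1, a platelet receptor gene (−0.32 and −1.45), RT1-S3, a class I histocompatibility gene (−0.33 and −1.42), Kcnn4, a calcium-activated potassium channel gene (−0.40 and −1.46), and Frmd4b (−0.56 and −1.54).

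The mature strands of the Mir221 and Mir222 hairpins are shown because these were the 2 microRNA genes called for alprostadil, and both were also called for the combination. Of 150 microRNA genes tested, 45 were called directly (30%), 24 higher and 21 lower, a smaller share than the 46.4% of all genes. The sequences are from RefSeq on GRCr8, 5′ to 3′, with the seed (bases 2 to 8) in capitals. The miR-221-3p strand lies at chrX:6023246-6023268 and the miR-222-3p strand at chrX:6022682-6022702, both on the plus strand, and they share the seed.
rno-miR-221-3p: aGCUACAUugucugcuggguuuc
rno-miR-222-3p: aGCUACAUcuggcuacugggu
rno-miR-31a-5p: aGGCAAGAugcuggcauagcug
rno-miR-21-5p: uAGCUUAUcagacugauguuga
The last 2 are strands of other microRNA genes that were called directly, chosen after their values were seen. Mir31 fell with the combination, at 5.76, 6.06 and 6.24 against 7.47, 7.70 and 7.51 with alprostadil and 7.16, 7.23 and 7.34 with vehicle. Its direct difference was −1.54 (SE 0.08, adjusted p = 1.2e-07). Mir21 went the other way, at 10.75, 10.35 and 10.54 against 9.90, 9.67 and 9.64 with alprostadil, a difference of 0.81 (SE 0.08), and its vehicle arrays overlapped those of alprostadil. Each of these 3 seeds differs from the others.

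Promoter letters were searched for CREB, which cyclic AMP is known to activate, and for AP-1, which ERK is known to induce. The activity of neither was measured here. The windows were the 250 bases before the RefSeq start in GRCr8, read on both strands. The full cyclic AMP response element TGACGTCA was in 3 of 57 promoters of genes raised by alprostadil and lowered by the combination (5.26%) and in 0 of 34 of the reverse set, against 2.54% of 12183 promoters of genes tested and 1.59% of all 33469. Promoters matched 50 of the 65 genes and 30 of the 40. The core TGACG, which the full element contains, was in 12 of 57 (21.1%) and 8 of 34 (23.5%), against 24.9% of promoters of genes tested and 18.2% of all. The AP-1 letters TGANTCA were in 3 of 57 (5.26%) and 3 of 34 (8.82%), against 4.85% and 6.34%. In the classes of alprostadil alone, raised, and of the same direction, upward, the full element was in 2 of 40 (5.0%) and 2 of 32 (6.25%), the core in 11 of 40 (27.5%) and 10 of 32 (31.3%), and the AP-1 letters in 3 of 40 (7.5%) and 1 of 32 (3.13%). These counts are small and describe letters, not binding.

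The stretches below are shown for a gene of each kind, with the matched letters in capitals. Tfpi2, whose match starts 80 bases before the start, lies at chr4:32941304-32941403 and is the AP-1 example among the opposite genes. Giot1, an opposite gene under all 21 alternatives, with a match 248 bases before the start, lies at chr7:10887116-10887215. Areg (alprostadil alone, 91 bases before) lies at chr14:17265679-17265778, and Il6 (raised by both, 162 bases before) at chr4:5894684-5894783. These 4 are on the minus strand. Nr4a1 (raised by both) lies on the plus strand at chr7:134259888-134260137 and holds 4 matches to the core, all read as CGTCA.
Tfpi2: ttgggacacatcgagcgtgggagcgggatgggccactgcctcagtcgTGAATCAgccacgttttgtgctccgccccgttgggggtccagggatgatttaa
Giot1: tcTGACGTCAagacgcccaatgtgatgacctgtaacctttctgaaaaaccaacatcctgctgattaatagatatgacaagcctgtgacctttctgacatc
Areg: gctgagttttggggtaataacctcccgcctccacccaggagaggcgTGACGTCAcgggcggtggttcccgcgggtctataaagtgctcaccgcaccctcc
Il6: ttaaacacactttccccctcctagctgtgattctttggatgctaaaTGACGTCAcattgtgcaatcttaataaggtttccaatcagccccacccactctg
Nr4a1: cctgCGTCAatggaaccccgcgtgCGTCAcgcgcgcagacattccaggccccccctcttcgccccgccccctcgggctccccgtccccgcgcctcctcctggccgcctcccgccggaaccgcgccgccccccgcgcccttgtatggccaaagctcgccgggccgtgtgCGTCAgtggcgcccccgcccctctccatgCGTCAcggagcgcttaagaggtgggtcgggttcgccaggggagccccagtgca
Giot1 itself lay at 9.80, 9.30 and 9.28 with alprostadil, at 8.45, 8.42 and 8.34 with vehicle and at 7.83, 7.80 and 7.87 with the combination, with moves of 1.06 and −0.57 and no overlap.

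Of the genes called for alprostadil, 37 were not called directly. The combination was called against vehicle in the same direction for 35 of them, and for the other two, Hdac5 and Plcb4, it was not called. Examples chosen after their values were seen show how close the levels were. Ccl12, a monocyte-attracting chemokine gene, lay at 6.66, 6.80 and 6.91 with alprostadil and at 7.01, 7.03 and 6.94 with the combination, against 8.47, 8.30 and 8.46 with vehicle. Its differences from vehicle were −1.62 and −1.42, and the direct difference was 0.20 with a 95% interval from −0.03 to 0.43 (adjusted p = 0.143). Crem, a cyclic AMP responsive repressor gene, rose by 0.49 and 0.56, with a direct difference of 0.07 (interval −0.10 to 0.24). Ppargc1a, a coactivator gene of mitochondrial biogenesis, rose by 0.60 and 0.59 (interval −0.23 to 0.22), and the cholesterol exporter gene Abca1 by 0.59 and 0.64 (interval −0.14 to 0.24). The tumour necrosis factor gene Tnf fell, at −0.55 and −0.71 (interval −0.35 to 0.04), and the chemokine gene Ccl4 at −0.76 and −0.88 (interval −0.32 to 0.08).

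The lists of genes that follow are set beside all genes tested, of which 46.4% were called directly, 24.5% higher and 21.9% lower with the combination. The lists and their members were chosen with earlier results of these data known. Their counts therefore describe the members, and the shares beside them give scale and are no test. Of 34 targets of the MEK and ERK pathway tested, 28 were lower with the combination than with alprostadil, beside 21.9% of all genes, 1 was higher and 5 were not called. Their median was −0.70 directly, −0.61 for the combination against vehicle and 0.00 for alprostadil against vehicle, with medians over all genes of 0.04, 0.03 and −0.01. After Dusp6, the lowest were Dusp5 (−3.11), another ERK phosphatase gene, the early transcription factor gene Egr1 (−2.82), at 7.03, 6.53 and 6.70 against 9.91, 9.48 and 9.32, and the chromatin protein gene Hmga2 (−2.31). The gene that was higher was Spry2 (0.67), a feedback inhibitor of receptor tyrosine kinases, at 11.08, 11.13 and 11.20 against 10.53, 10.45 and 10.42. The related Spry4 differed by −2.02. Alprostadil was called for 5 members, Phlda1, Lif, Ier3 (0.59) and Junb (0.41) upward and Kcnn4 downward, beside 1.88% of all genes.

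Of 27 targets of cyclic AMP and CREB tested, 12 were lower with the combination, 6 higher and 9 not called, with a median of −0.01. Alprostadil raised 12 of the 27 and lowered none, beside 1.17% of all genes raised. Those 12 were spread over the classes that hold genes raised by alprostadil, and some were not called directly. Ptgs2 and Gem moved oppositely, Areg, Pde4b and Pde4d were called for alprostadil alone, Nr4a1, Nr4a3, Nfil3, Pde10a (0.84 with alprostadil and 0.46 with the combination) and the clock gene Per1 (0.52 and 0.18) rose with both, and Crem and Ppargc1a did so without a direct call. Per1 kept its class in 3 of the 9 runs without 1 array. Atf3, a stress transcription factor gene of the same list, was higher with the combination alone (1.42 directly, −0.11 for alprostadil).

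Of 24 components of cyclic AMP signalling, 8 were higher and 7 lower with the combination (median −0.05). The adenylyl cyclase genes split, with Adcy2 (−0.89), Adcy3 (−0.64), Adcy7 (−0.37) and Adcy8 (−0.62) lower and Adcy5 (0.36) and Adcy6 (0.24) higher. Of 16 genes of prostanoid receptors and metabolism, 5 were lower and 3 higher (median 0.01), a share near the 46.4% of all genes. The prostaglandin transporter gene Slco2a1 lay at 9.06, 8.73 and 8.70 with the combination against 12.17, 11.86 and 11.62 with alprostadil, a difference of −3.05 (SE 0.07). The receptor genes went different ways. Ptger3, of the inhibitory EP3 receptor, lay at 10.11, 10.45 and 10.87 against 7.45, 7.97 and 8.86, a difference of 2.38 (SE 0.14), Ptger4, of the stimulatory EP4 receptor, was higher by 0.81, and Ptgir, of the prostacyclin receptor, differed by −0.94. The alprostadil differences of Ptger3 (0.14), Ptger4 (−0.37) and Ptgir (−0.20) from vehicle were not called.

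Of 39 wound growth factors and cytokines, 19 were lower with the combination and 13 higher (median −0.25). Lower were the bone morphogenetic protein gene Bmp2 (−2.77) and the alarmin gene Il33 (−2.23), both called for the combination alone, and Vegfa and Fgf10. Higher were Pdgfd, Ccn2, the keratinocyte growth factor gene Fgf7 (1.70) and Bmp6 (2.26). Alprostadil raised 9 of the 39, Il6, Lif, Il11, Areg, Vegfa, Fgf10, Angptl4 (0.68), Angpt2 (0.61) and Ereg (0.50), beside 1.17% of all genes raised. Angptl4, Angpt2 and Ereg were in the class of alprostadil alone and kept it in 3, 4 and 3 of the 9 runs without 1 array, and not without the block. Alprostadil lowered Ccn2 and Csf1 (−0.33). The vascular growth factors did not move as 1 group, since Vegfc (−0.88) was lower and Vegfb (0.50) and Vegfd (1.77) were higher with the combination. Of 20 chemokine and TNF family ligand genes, 9 were lower and 4 higher (median −0.23). Cxcl16 (−1.82) and Cxcl1 (−1.80) were the lowest, and Cxcl12 (1.86) the highest. Alprostadil raised none of the 20 and lowered 6, Ccl12, Ccl4, Ccl3 (−0.74), Ccl7 (−0.57), Tnf and Tnfsf15 (−0.65), beside 0.711% of all genes lowered. The list does not hold Pf4, Ccl6 and Ccl24, chemokine genes called higher for alprostadil alone, so its count does not stand for all chemokines. Ccl24 kept that class in each of the 9 runs without 1 array, but not without the block.

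Of 20 metalloproteinases and their inhibitors, 10 were lower with the combination, 9 higher and 1 not called (median −0.24). Alprostadil was called for none of them, beside 1.88% of all genes. Its differences from vehicle were below 0 for 6 of the 20, with a median of 0.09. The summed level of the list ran from 62614 to 64749 with alprostadil, above the 54474 to 59476 with vehicle. Beside the 4 strong falls with the combination, the macrophage elastase gene Mmp12 (−2.88) was lower with it. Higher with it were Adamts5 (2.80), Mmp11 (1.57), Adamts1 (0.71) and the inhibitor gene Timp3 (0.61). Of 11 genes of plasminogen activation and clotting control, 5 were lower and 2 higher (median −0.18). The urokinase gene Plau was lower by −2.21, and its receptor gene Plaur by −0.87.

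All 28 mitosis genes tested were lower with the combination than with alprostadil (median −2.11), from Sgo2 at −3.19 to Aurka at −0.66. Top2a, the topoisomerase gene of dividing cells, differed by −3.003, and the mitotic kinase gene Cdk1 by −2.26. Of 31 DNA replication genes, 29 were lower and 2 not called (median −1.13), with Rrm2, a ribonucleotide reductase gene, lowest at −2.90. Alprostadil was called against vehicle for none of the 28 or the 31. Its differences were below 0 for all 28 mitosis genes, with a median of −0.18, and for 30 of the 31 replication genes, with a median of −0.20. The median over all genes was −0.01, and the share of all genes below 0 was not counted. The summed levels overlapped, at 11498 to 13774 with alprostadil and 12701 to 16012 with vehicle for mitosis. For replication they were 16208 to 19440 and 18146 to 22760.

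Of 36 extracellular matrix genes, 26 were higher with the combination, beside 24.5% of all genes, and 2 lower (median 0.64). Beside Mfap5, the fibrillar collagen gene Col11a1 (2.50), the collagen cross-linking enzyme gene Loxl2 (1.80) and Fbln2 (1.74) led, and Col1a1, a chain of the main dermal collagen, was higher by 0.69. The 2 lower genes were Col8a1 (−1.78) and Has2. Of 23 targets of ATF4 and the unfolded protein response, 19 were higher, beside the same 24.5%, and 2 lower (median 0.69), with Atf5 (1.96) and the amino acid transporter gene Slc7a5 (1.49) highest. Alprostadil raised 1 of the 23, the cystine transporter gene Slc7a11 (0.52), which kept its class in 1 of the 9 runs without 1 array. Of 10 smooth muscle and myofibroblast genes, 4 were higher, Tagln, Myl9 (1.43), Actg2 (0.80) and Tpm1 (0.70), and 1 was lower, Cald1 (−0.26), so 5 of 10 were not called, a share near that of all genes.

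The counts in other lists were read beside the same 46.4% of all genes called. Of 14 genes of glycolysis and hypoxia, 7 were lower and 1 higher (median −0.18), with Vegfa lowest, then Hk2 (−0.83), and the vasodilator peptide gene Adm higher (0.79). Of 14 genes of cholesterol synthesis, 7 were higher and 1 lower (median 0.15), with Dhcr7 highest (0.91). Of 22 markers of dermal precursors and neural crest, 9 were lower and 6 higher (median −0.02). Vim and Fn1 stayed bright on all arrays, with lowest values of 13.40 and 13.28, and Nes was at 8.25 or above. Sox2, a marker of SKPs and dermal papilla, differed by −0.69, Pdgfra by −0.90 and Prrx2 by 1.32. Of 19 dermal papilla genes, 6 were higher and 5 lower (median 0.02), with Ncam1 (2.26) and Bmp6 high and Igfbp3 and Wnt5a low. Of 8 housekeeping genes, 2 were called, Rplp0 (−0.19) and Sdha (−0.19), with a median of −0.06, and each lost its call under 6 of 15 alternatives.

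**Figure D4:**
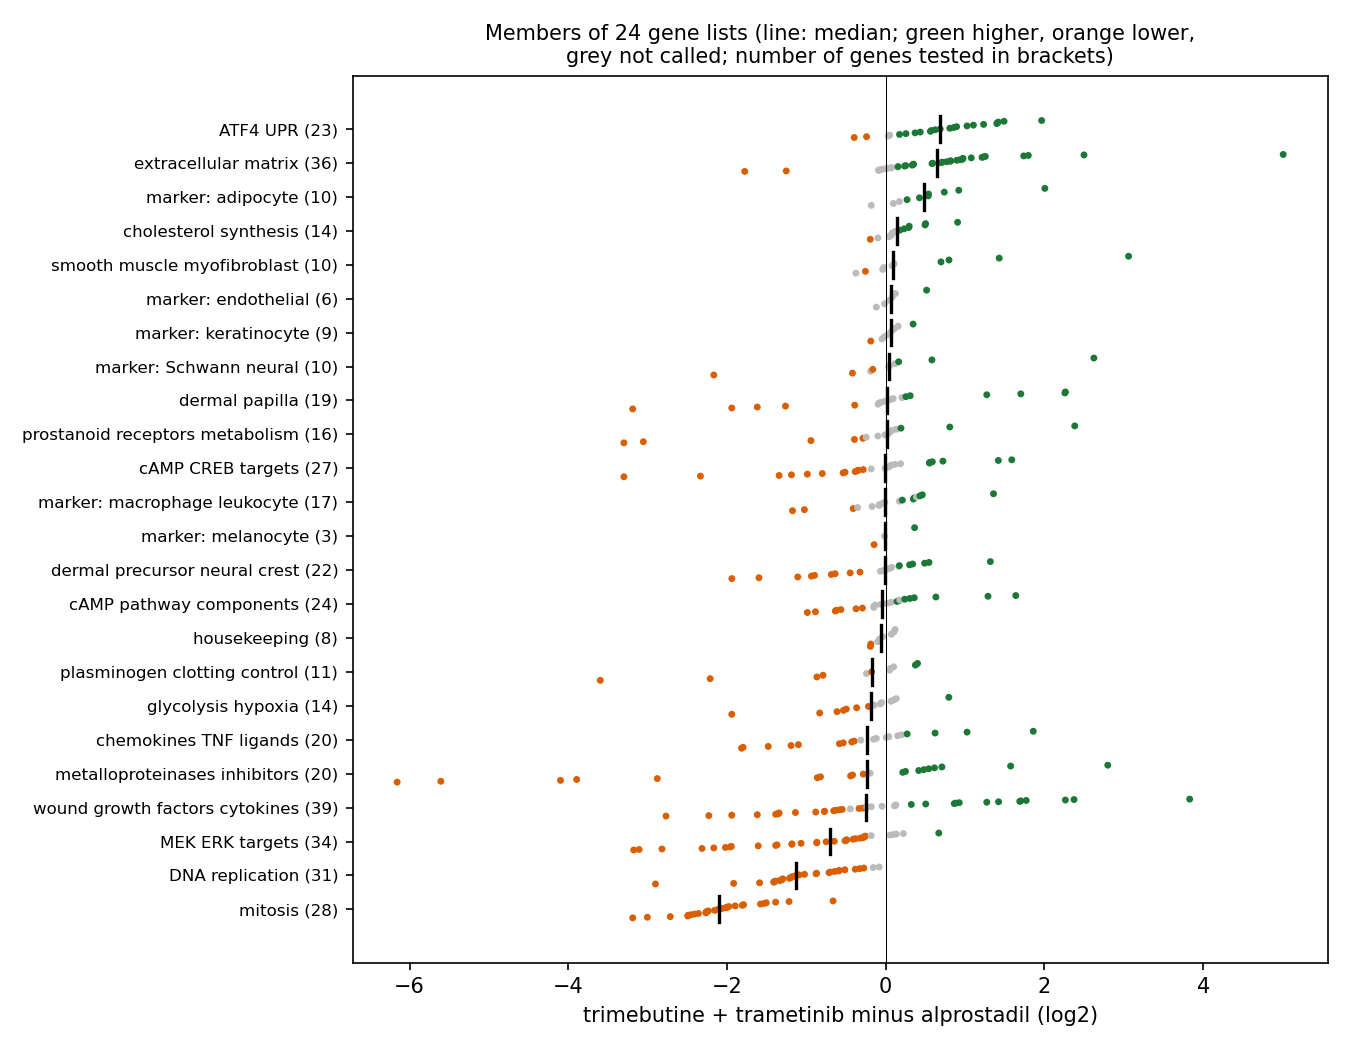
Difference between trimebutine with trametinib and alprostadil (log2, horizontal axis) of each tested member of 24 gene lists (rows, with the number of genes tested), with the list median as a line, genes called higher in green, called lower in orange and not called in grey. The mitosis, DNA replication and ERK target lists lie to the left of 0 with medians of −2.11, −1.13 and −0.70, and the matrix and ATF4 lists to the right with 0.64 and 0.69.

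Markers of other cells differed unevenly. Of 10 adipocyte genes, 7 were higher with the combination and none lower (median 0.48), led by the lipoprotein lipase gene Lpl (2.00). The summed level ran from 8898 to 10569 against 2691 to 6135 with alprostadil and 2989 to 7290 with vehicle. Lpl was the brightest member, with a mean of 10.97 and a highest value of 12.69 over all arrays, so it weighs most in that sum. The sum without Lpl was not taken. Without the block, Cidec (adjusted p = 0.24) and Plin1 (adjusted p = 0.233) were not called. Of 10 Schwann and neural genes, 3 were higher, Tubb3, S100b (0.58) and Gfap (0.16), and 3 lower, Egr2 (−2.17), Map2 (−0.42) and Gap43 (−0.16). Without the block, S100b (adjusted p = 0.223) and Map2 (adjusted p = 0.0821) were not called. Egr2, at 12.54, 12.26 and 12.22 with alprostadil and 10.86, 9.76 and 9.90 with the combination, is also an ERK target, and the summed level of the list ran from 2480 to 3345 with the combination against 6132 to 7295 with alprostadil. Egr2 made up most of that sum with alprostadil, and without it the sum was the higher with the combination, at 1487 to 1665 against 1247 to 1365. Sox10, a defining gene of Schwann cells and melanocytes, differed by 0.07 and was not called. Of 9 keratinocyte genes, Krt15 (0.34) was higher and Lama3 (−0.19) lower, with Tp63 and Epcam under the level needed for testing. Of 6 endothelial genes, Flt1 (0.51) was higher, and of 3 melanocyte genes Dct (0.36) was higher and Mitf (−0.15) lower, with Tyr and Mlana under that level. The call of Lama3 was lost under 9 of 14 alternatives and that of Mitf under 10 of 15. The part of these cell types in the results was not tested.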

How the data were processed

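RNA of the 12 cultures was hybridised to Affymetrix Rat Gene 2.0 ST arrays. The authors deposited log2 expression values per feature, for which the submitters' processing notes name oligo and RMA without versions or an annotation build. RMA gives the arrays a common distribution, so a change in total RNA is not visible. Of 36685 features, 18511 had 1 symbol, 575 several and 17599 none. Symbols were updated to the GRCr8 gene table for 18394. The brightest of the features sharing a symbol (636) was used. Genes with a mean under the 25th percentile (5.83) were left out.

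limma 3.58.1 (R 4.3.3; lmFit, contrasts.fit, eBayes, two-sided) was fitted to all 12 arrays with the replicate number as a block (6 residual degrees of freedom), with Benjamini-Hochberg adjustment over 13636 genes. The titles give the numbers, the design text speaks of independent isolates, and the 18 same-numbered pairs of arrays deviated together (r from 0.21 to 0.81). For the 36 pairs with different numbers, r ran from −0.71 to 0.10. The steps were also run on simulated data, where the pass mark covered only opposite moves larger than most of those reported here. Smaller moves were simulated too, but how well they were classed was not part of the pass mark and is not reported here.

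Named genes were the 12 largest rises and falls without overlap, 12 per direction of the opposite classes by the smaller move, 8 per direction of the other classes, up to 4 per list by p, and members that complete a count. Others were added once their values were known. The members and lists were chosen with earlier results of these data known. Motif windows in further classes were added later.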

Additional observations from a re-analysis of the deposited data

Results flagged for a closer look

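Features outside the named genes also differed between the treatments. Of 9611 features with no or several symbols and a mean above the same filter, 1362 were called for the combination against alprostadil (14.2%), 501 higher and 861 lower, and 5 were called for alprostadil against vehicle. They were fitted separately and enter no count in the report. No group of 3 arrays was examined for a single outlying array.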

How the results depend on the processing

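No called difference of a gene named by the rule changed sign under the alternatives run that tested it, which were the fit, the scaling, the filter and leaving out each array. The split of calls did turn. With median centring 2695 genes were higher and 2939 lower directly, and with the 50th percentile filter 2783 and 2806, while the median difference of the combination from vehicle went from 0.035 to −0.0041 and −0.0035. Median centring and quantile normalization kept each count within 1.5 times and moved the median difference by less than 0.1. The fit with no replicate block gave 53 genes for alprostadil against vehicle, 16 and 2 opposite genes (alprostadil higher, then lower), 14 for alprostadil alone and 8 in the same direction. Only the groups compared gave 43 and 21 opposite and 33 same. No filter gave 169 for alprostadil, 41 and 21 opposite and 30 same, and the 50th percentile filter 77 of the second opposite class and 88 same. A trend in the variance gave 464 for alprostadil, 103 and 95 opposite, 93 alone and 114 same, and array weights gave 734, 176 and 119, 167 and 147. An adjusted p under 0.10 gave 101 and 82 opposite, 97 alone and 105 same. Differences of at least 0.5 gave 21 and 8 opposite, 1654 for the combination alone, 35 for alprostadil alone, 12 same and 410 neither.

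Leaving out 1 array at a time gave 5328 to 6341 genes directly, 4749 to 5886 for the combination and 115 to 208 for alprostadil against vehicle, and 4665 to 5669 for the combination against trimebutine. It gave 30 to 87 and 12 to 49 opposite genes, 4149 to 4901 for the combination alone, 24 to 79 for alprostadil alone, 22 to 73 in the same direction and 804 to 1722 in neither. Of 147 named genes called directly, 133 were called under every alternative that tested them, against 14 of 65 for alprostadil against vehicle. Many named genes were chosen by the size or the p of their direct difference in these same data. These shares therefore describe the named genes and do not compare how stable the comparisons are. The cause of these changes was not tested, beyond the fewer arrays, fewer genes or stricter rule that a setting itself brings. Signal over background per feature was not used here.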
